A study of Mus musculus with 26 samples.

Results

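The genes described here encode the proteins of the mitochondrial ribosome that carry an Mrpl or Mrps symbol. They were taken from the deposited expression table as protein-coding genes whose symbol starts with Mrpl or Mrps and a digit, which gave 78 of 56392 genes (21885 of them protein-coding). The 49 Mrpl genes were counted as the large subunit and the 29 Mrps genes as the small subunit. The rule used symbol and gene type and no expression value, but it was chosen with earlier results of these data known. In the deposited table they lie on 17 chromosomes, with 11 on chromosome 11 and 8 on chromosome 17, and their coding lengths run from 264 to 1329 bases, with a median of 585. Together they took 0.129% of reads in ON 2, the lowest library, and 0.293% in CT 1, the highest.

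The mitochondrial ribosome translates the few proteins that the mitochondrial genome encodes, all of them subunits of the respiratory chain and ATP synthase. Its RNAs come from that genome, while its proteins are encoded in the nucleus, made by cytosolic ribosomes and imported. The large subunit joins amino acids and the small subunit reads the codons. Many of the proteins have bacterial counterparts, and others occur only in mitochondria. In lymphocytes, activation and growth are known to call on mitochondrial translation.

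Spleens came from 8-week-old female mice of the BALB/c strain, and their poly(A)-selected RNA was sequenced in 26 libraries. The saline group, coded CT, has 5 libraries. Ovalbumin (OVA, an egg-white protein used to sensitise mice) was injected into the peritoneum at 0.05 mg per day on days 1, 3 and 5 in the mice of 11 libraries, 6 coded OS and 5 coded ON. A further 10 libraries, 5 coded MM and 5 coded MN, come from mice that had the same OVA and, on day 3, 7 mg per kg of miR-676-3p mimic (a synthetic copy of a microRNA) by the tail vein. Each group had 20 mice, per the labels. The labels define none of the codes and mention no control mimic. Nothing says that the libraries came from different mice, so p-values measure only the spread between them, which may be technical. Markers of B cells, T cells and red pulp macrophages, 6 genes for each, summed to at least 89.7 FPKM per list in every library.

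Libraries held 14224832 to 18113989 reads, recovered as whole counts from the deposited values. 3 libraries stood apart in reads on 19 pancreatic genes, with 27.3% in ON 2, 13.6% in MM 2 and 4.10% in ON 3, against at most 0.00334% elsewhere. Of these genes Prss1, Ins1 and Ins2 were at 0 in every CT, OS and MN library. In CT 4, mitochondrially encoded genes took 6.62% of reads, and no other saline library exceeded 1.81%. Many medians and counts below are also given without these libraries. Where none is printed, the value may still have moved. Levels are in FPKM (fragments scaled by gene length and library size). Differences are on the scale of log2(FPKM + 1), which understates the change of genes with few reads, and are given with their standard error (SE). The test was limma over the 15672 genes that reached an FPKM of 1 in 5 or more libraries, and a gene was called when its Benjamini-Hochberg adjusted p was below 0.05. Of the 78 members, 77 entered the test. Mrpl53, a large-subunit gene, was listed at 0 in all 26 libraries, shares exons with 2 other annotated genes, and was not tested.

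The promoters of these genes carried the short core of the ETS family of transcription factors more often than other promoters did. RefSeq windows of 300 bases on GRCm38.p6 (250 before the annotated start and 50 from it on) were matched by symbol for 69 of the 78 members, some with more than 1 start, giving 75 windows. The ETS core CCGGAAG, searched on both strands, was in 26 of them, or 34.7%, against 8.86% of all 32851 windows and 11.6% of the 21263 windows of protein-coding genes. The YY1 core AAGATGG was in 17.3% of member windows against 6.34% of all windows and 6.24% of protein-coding ones, and the NRF1 palindrome, GCGCA followed by TGCGC, in 4% against 0.971% and 1.33%. The Sp1-type GC box GGGCGG was in 52% against 35.7% and, among protein-coding windows, 46.2%. The E-box CACGTG was in 9.33% against 7.15% and 7.84%. The TATA box TATAAA was in 6.67% against 13.6% and 12.6%, and CCAAT in 40% against 37.4% and 38.2%, each given for all and then for protein-coding windows. Motifs were counted separately, so overlapping matches of different motifs count for each. These are matches of letters and say nothing of which factor binds.

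The 100 bases before the start are printed for 5 genes. They include the only member called, the most abundant member and the member with the largest fitted decrease under OVA. The others are Mrps18b and Mrpl3, whose difference was above 0. Mrpl10 also had a difference above 0, larger than that of Mrpl3, and is not printed. Its 100 bases hold no ETS core. Capitals mark the ETS core. On GRCm38.p6 these windows are chr16:18876638-18876737 on the minus strand for Mrpl40, chr14:54426809-54426908 on the plus strand for Mrpl52, chr17:45686249-45686348 on the plus strand for Mrpl14, chr17:35916441-35916540 on the minus strand for Mrps18b and chr9:105053168-105053267 on the plus strand for Mrpl3.
Mrpl40: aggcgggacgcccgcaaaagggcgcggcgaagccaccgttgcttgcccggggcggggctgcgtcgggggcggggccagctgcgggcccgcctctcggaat
Mrpl52: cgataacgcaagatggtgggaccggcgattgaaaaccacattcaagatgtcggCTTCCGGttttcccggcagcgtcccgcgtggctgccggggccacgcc
Mrpl14: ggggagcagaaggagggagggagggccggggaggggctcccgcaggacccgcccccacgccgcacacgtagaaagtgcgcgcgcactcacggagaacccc
Mrps18b: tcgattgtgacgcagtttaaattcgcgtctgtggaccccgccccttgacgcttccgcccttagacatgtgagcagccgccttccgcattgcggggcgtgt
Mrpl3: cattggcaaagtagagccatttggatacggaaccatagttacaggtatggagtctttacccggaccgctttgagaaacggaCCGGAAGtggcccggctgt
Mrpl3 has the core on the printed strand, starting 19 bases before the start, and Mrpl52 has it on the other strand, 47 bases before. In these 100 bases Mrpl40, Mrpl14 and Mrps18b have none. The presence of the core did not sort members by their difference from saline: the median OVA difference was -0.30 for the 25 tested members with it, 23 of them below 0, and -0.25 for the 43 matched and tested members without it, 39 of them below 0.

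Most members were lower in spleens of mice given OVA than in saline. The fitted difference was below 0 for 71 of 77 members with a median of -0.25, while 48.3% of all 15672 genes were below 0 with a median near 0 (0.008). Only 1 member, Mrpl40, passed the test and fell, beside 2.17% of all genes called in this comparison. Without adjustment, 36 members had p under 0.05, all of them lower, where 16.3% of all genes had such a p in either direction. That count was 21 without CT 1, where 15.7% of all genes had such a p. It was 31 when ON 2, ON 3 and MM 2 were left out, beside 13.1% of all genes. No member had every OVA library below every saline library, against 0.581% of all genes. In bulk tissue, fewer cells of a type and less RNA per cell cannot be told apart.

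**Figure D1:**
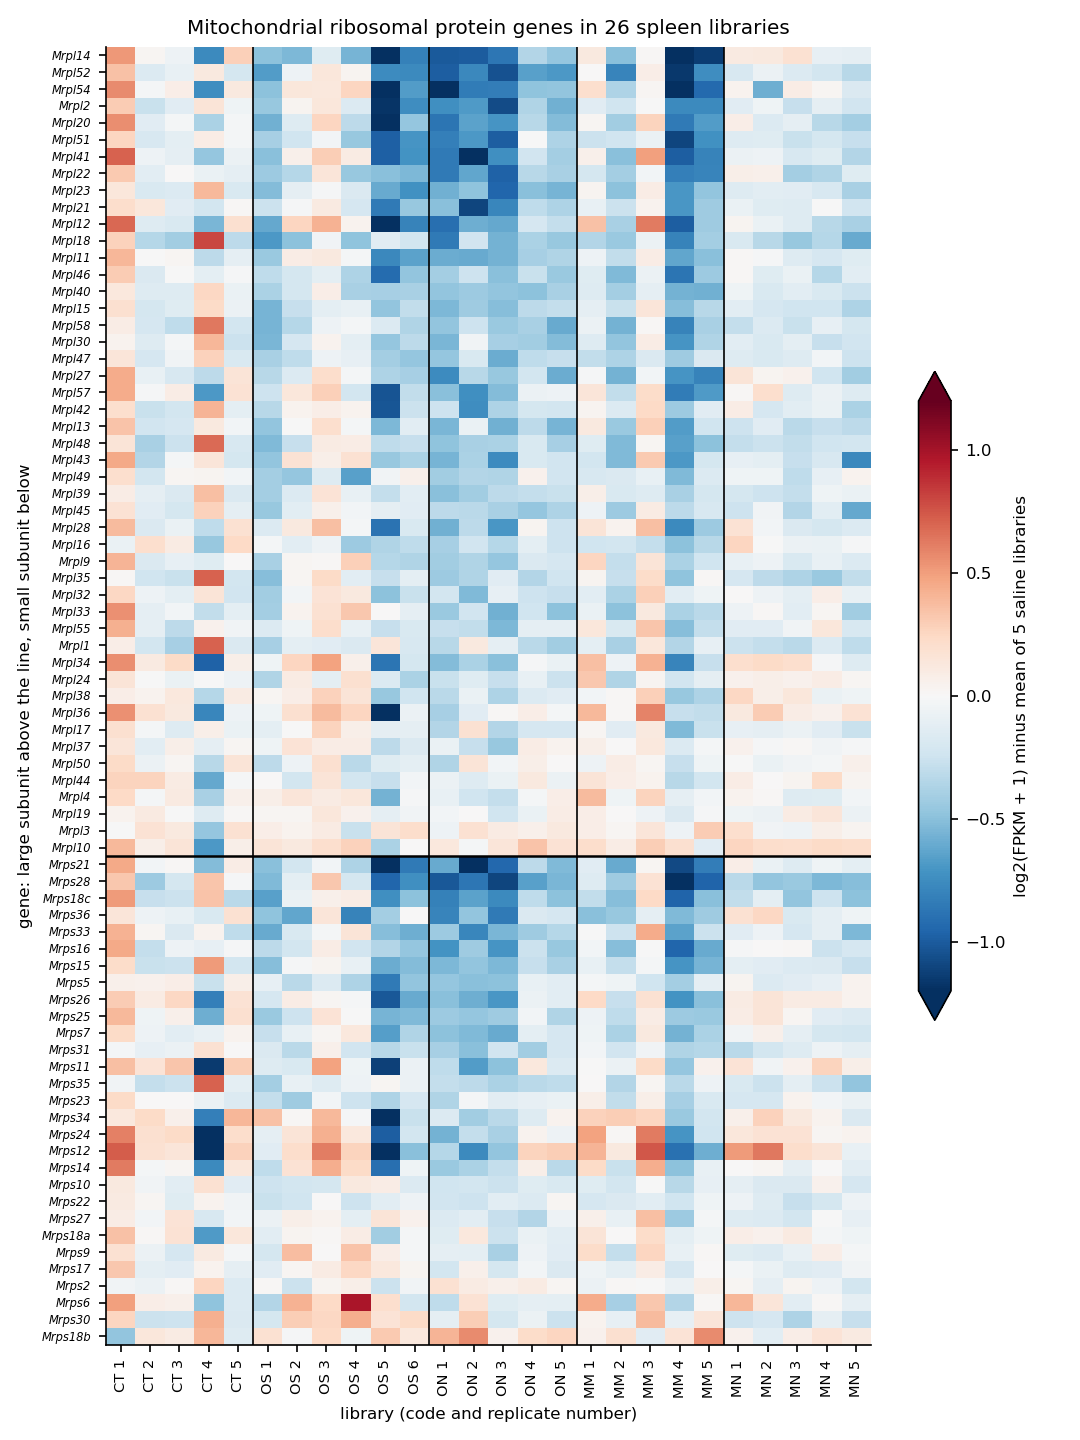
Heat map of log2(FPKM + 1) minus the mean of the 5 saline libraries for the 77 tested members (rows, large subunit above the line and small subunit below, ordered by the OVA difference) in 26 libraries (columns, by code). CT 1 is high across most rows, and OS 5, MM 4 and ON 3 are low across most rows, while MN is near the saline mean.

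Mrpl40 encodes a large-subunit protein that occurs only in mitochondria. The gene (ENSMUSG00000022706) lies on chromosome 16 from 18690768 to 18695612 on the minus strand in the deposited table, whose build is not named, and its exons overlap no other annotated gene. Its level rested on 215 to 473 reads per library. FPKM were 16.7, 13.6, 13.6, 18.3 and 14.3 in CT 1 to CT 5. They were 11.5, 13.0, 16.1, 11.4, 11.3 and 11.3 in OS 1 to OS 6, and 10.7, 11.0, 10.7, 10.5 and 11.4 in ON 1 to ON 5. All libraries of OVA were below the lowest saline library except OS 3, which lay among the saline libraries. The means were 15.3 ± 2.11 in saline (SD, n = 5) and 11.7 ± 1.60 in OVA (SD, n = 11). The difference was -0.37 ± 0.09 (SE), with an adjusted p of 0.0351 by limma, and 10 of 11 OVA libraries were below the saline mean. The call was lost in several alternatives, among them leaving out CT 4 (adjusted p = 0.0795) or the 3 libraries with pancreatic reads (0.0993) and adding the replicate number as a block (0.0692), with differences between -0.40 and -0.30 whichever library was left out. voom on the recovered reads, which called 1.86% of all genes, kept it (0.0439).

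In the libraries with the mimic, Mrpl40 was at 13.6, 11.2, 14.0, 9.91 and 9.85 FPKM in MM 1 to MM 5 and at 14.6, 13.3, 13.9, 13.3 and 12.5 in MN 1 to MN 5. The MN values lay above every ON library and overlapped saline, and the MM libraries ran from below ON into the saline range. Against OVA the mimic libraries differed by 0.11 ± 0.07 (adjusted p = 0.626), and against saline by -0.26 ± 0.09 (adjusted p = 0.732, limma).

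**Figure D2:**
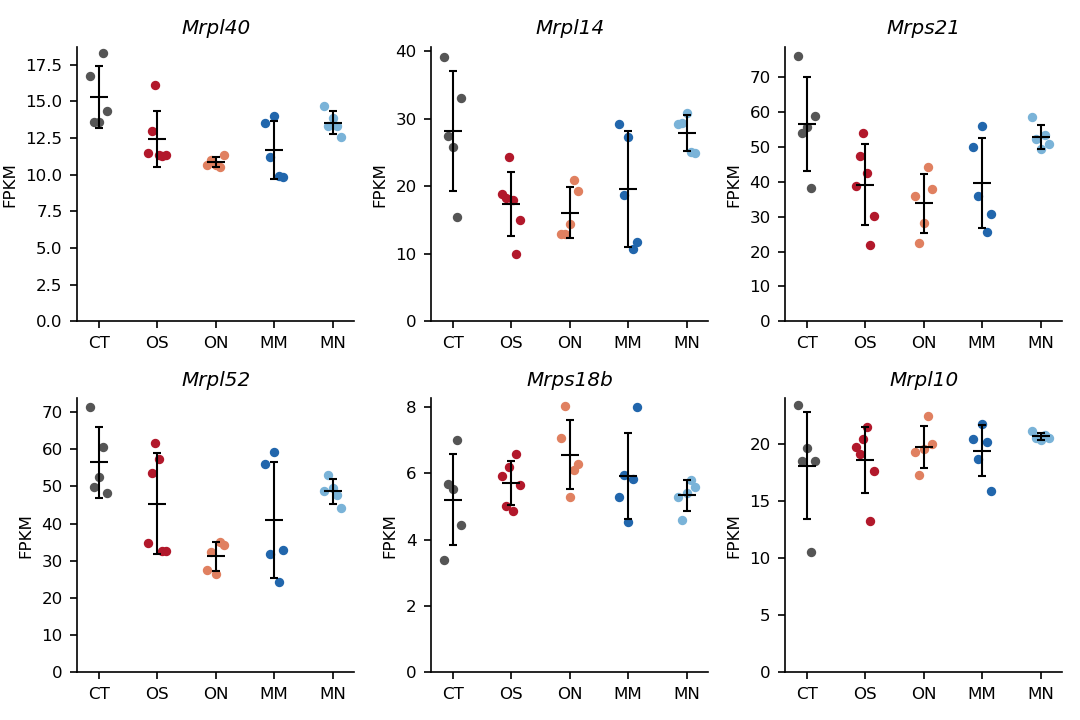
FPKM of 6 members in every library by code (points), with mean ± SD for each code; the vertical axes are linear and differ between panels. Mrpl40 is below the saline libraries in all ON libraries, Mrpl14 and Mrps21 are near saline in MN, and Mrps18b and Mrpl10 overlap the saline libraries in every code.

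The members with the largest fitted decreases under OVA were Mrpl14, Mrps21, Mrps28 and Mrpl52, none of which passed the test. Mrpl14 (ENSMUSG00000023939) is a conserved large-subunit protein at the face that meets the small subunit, and its exons overlap those of Tmem63b on the other strand. It was at 39.2, 27.5, 25.8, 15.5 and 33.0 FPKM in CT 1 to CT 5 and from 10 to 24.4 in the 11 OVA libraries, with a median of 18.0. CT 4 was low, so the groups overlapped through that library only. The means were 28.2 ± 8.82 (SD, n = 5) and 16.8 ± 4.18 (SD, n = 11), a difference of -0.69 ± 0.22 (adjusted p = 0.0968, limma). Mrps21 (ENSMUSG00000054312), with the shortest coding sequence of the members, had 75.8, 53.8, 55.7, 38.2 and 58.8 FPKM in CT 1 to CT 5 and a median of 37.9 in OVA, from 22.0 to 54.0. CT 4 was again the lowest saline library. The difference was -0.64 ± 0.20 (adjusted p = 0.0848). Without CT 4, Mrpl14, Mrps21 and 2 further members, Mrpl16 and Mrps5, named after their values were seen, were called and Mrpl40 was not. The share of all genes called in that run is not given here.

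Mrps28 (ENSMUSG00000040269) and Mrpl52 (ENSMUSG00000010406) showed the opposite pattern in CT 4, where they were high. Mrps28 had 39.0, 22.6, 26.6, 39.2 and 30.6 FPKM in CT 1 to CT 5 and a median of 19.3 in OVA, from 13.9 to 39.0, a difference of -0.60 ± 0.22 (adjusted p = 0.149). OS 3 was as high as the highest saline libraries. Mrpl52, a mitochondria-specific large-subunit protein and the most abundant member at 44.5 ± 12.8 FPKM over all 26 libraries (SD), had 71.4, 49.8, 52.5, 60.6 and 48.3 in CT 1 to CT 5. In OS 1 to OS 6 it had 34.7, 53.5, 61.6, 57.3, 32.6 and 32.5, and in ON 1 to ON 5 27.6, 32.3, 26.5, 35.1 and 34.2. The OS libraries split into 3 within the saline range and 3 below it, and all ON libraries were below. The OVA difference was -0.59 ± 0.18 (adjusted p = 0.0799).

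The 6 members above 0 had fitted differences of at most 0.22. Mrps18b (ENSMUSG00000024436), with the highest fitted difference, was at 3.4, 5.68, 5.53, 7.01 and 4.46 FPKM in saline and at 6.10 ± 0.922 in OVA (SD, n = 11), a difference of 0.22 ± 0.12 (adjusted p = 0.368). The groups overlapped, with CT 4 above most OVA libraries. Without CT 1, the lowest saline library, the difference was 0.10, and without CT 4 it was 0.32. Mrpl10, the base of the stalk that recruits translation factors, had a difference of 0.11 ± 0.12 (adjusted p = 0.735), with saline at 23.3, 18.5, 19.6, 10.5 and 18.5 FPKM and OVA at 19.1 ± 2.44. CT 4 was low there too, and without that library the difference was -0.06. Mrpl3, a core protein near the catalytic centre, differed by 0.07 ± 0.09 (adjusted p = 0.796), and Mrps30 by 0.06 ± 0.12 (adjusted p = 0.860). Leaving out CT 4 turned the sign of Mrpl10 and Mrpl3 (-0.05), and leaving out CT 2 that of Mrps30 (-0.003), so these 3 have no stable direction.

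The Mrps18 paralogues occupy different places in the ribosome. Mrps18c, the closest to the bacterial protein, was at 20.2 ± 6.06 FPKM in saline (SD, n = 5) and 14.6 ± 3.77 in OVA (SD, n = 11), a difference of -0.45 ± 0.17 (adjusted p = 0.180). Mrps18a, which sits in the large subunit despite its symbol, was at 6.32 ± 1.74 and 5.76 ± 0.715, a difference of -0.08 ± 0.12 (adjusted p = 0.786) that ran from -0.25 without CT 4 to 0.004 without CT 1. With Mrps18b above 0, the 3 paralogues ran from -0.45 to 0.22, but each missed the threshold and their differences from each other were not tested.

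Members with known special roles lay across the same range. Mrpl12, the mobile stalk protein that also binds the mitochondrial RNA polymerase, was at 41.4 ± 14.5 FPKM in saline and 31.3 ± 11.7 in OVA (-0.42 ± 0.26, adjusted p = 0.438), and without CT 1 the difference was -0.25. Mrpl11, which forms the stalk base beside Mrpl10, was at 8.41 ± 1.75 and 6.28 ± 1.64 (-0.39 ± 0.14, adjusted p = 0.139). Mrps36, now known as a subunit of the oxoglutarate dehydrogenase complex, was at 16 ± 1.89 and 11.9 ± 3.07 (-0.43 ± 0.14, adjusted p = 0.0993). Mrpl58, a peptidyl-tRNA hydrolase that became part of the ribosome, differed by -0.34 ± 0.13 (adjusted p = 0.190), and by -0.18 without CT 4. Mrpl44, with a fold like RNase III, and Mrps27, a pentatricopeptide repeat protein, differed by -0.08 ± 0.11 and -0.09 ± 0.09. Without CT 4 these were -0.23 and -0.14, while Mrpl44 was at -0.009 without CT 1 or CT 2 and Mrps27 at -0.05 without CT 3. Mrps12 of the decoding centre varied most between libraries of a code (SD 0.615 on the log2 scale) and differed by -0.17 ± 0.31, from -0.51 without CT 4 to 0.007 without CT 1. None of these passed the test.

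Levels differed between members more than between treatments. The highest mean FPKM over all libraries belonged to Mrpl52, Mrps21, Mrpl34 and Mrpl12, all above 35, and the lowest among tested members to Mrps25, Mrps10 and Mrps35, all below 3. Mrpl34 was at 46.5 ± 15.7 FPKM in saline and 40.3 ± 10.9 in OVA (-0.18 ± 0.22), with a difference of -0.42 without CT 4, -0.10 without OS 5 and -0.04 without CT 1. Of the low members, Mrps25 went from 3.08 ± 0.949 to 2.27 ± 0.584 FPKM (-0.31 ± 0.14, adjusted p = 0.263) and Mrps10 from 2.95 ± 0.391 to 2.56 ± 0.346 (-0.16 ± 0.08). Mrps35 went from 3.19 ± 1.37 to 2.50 ± 0.365 (-0.22 ± 0.12), a difference of -0.05 without CT 4. The largest spread within codes after Mrps12 was that of Mrpl12 (SD 0.498), and the smallest that of Mrps22 (0.0983), and the median member's spread (0.252) was close to that of all tested genes (0.258). 6 processed pseudogenes carry related symbols. The one with the highest mean, Mrpl48-ps at 5.77 FPKM, exceeded its parent gene Mrpl48 at 2.74, so reads of that pair are uncertain.

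The large and the small subunit moved in the same direction by similar amounts. In OVA against saline, 46 of 48 tested large-subunit members were below 0 with a median of -0.28, and 25 of 29 small-subunit members with a median of -0.20. Those with an unadjusted p under 0.05 were 23 and 13, all lower. Averaged over members in each library and set against saline, the large subunit was -0.28 ± 0.204 and the small subunit -0.22 ± 0.186 in OVA (SD, n = 11). The large-minus-small value was -0.064 ± 0.038 in OVA (SD, n = 11), from -0.12 to 0.0049, and from -0.052 to 0.12 in saline. The saline library at the top was CT 4. The fitted difference was -0.065 with it and -0.035 without it. Moving Mrps30 and Mrps18a, known from structures to sit in the large subunit, and leaving out Mrps36 gave -0.046. The fitted difference was smaller than the range of the saline libraries, but CT 4 sets the top of that range. Without CT 4 the saline libraries ran from -0.052 to 0.022, and the OVA mean of -0.064 lay below all of them. This range therefore cannot decide whether the subunits differed.

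**Figure D3:**
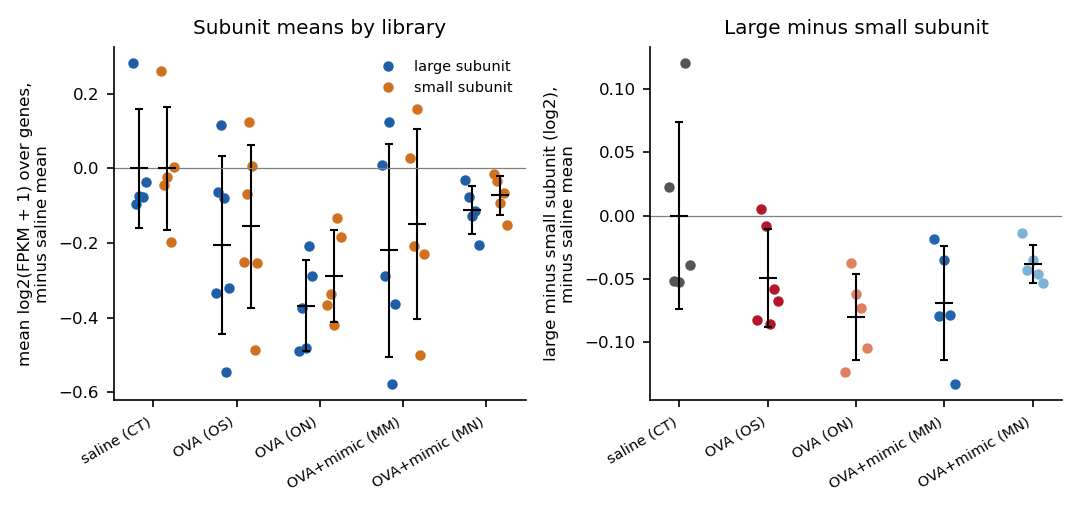
Left: mean log2(FPKM + 1) of the tested large-subunit and small-subunit members in each library, minus the saline mean, with mean ± SD for each code. Right: large minus small, where CT 4 is the highest library and raises the saline mean. All MM and MN libraries and 10 of the 11 OVA libraries lie below 0, and so do the saline libraries CT 2, CT 3 and CT 5.

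Split by code, the lower level under OVA was more even in ON than in OS. In ON against saline, 73 of 77 members were below 0 with a median of -0.35 (all genes 0.015), -0.37 for the large and -0.27 for the small subunit. No member was called, beside 0.51% of all genes, and 43 had an unadjusted p under 0.05, 42 of them lower and Mrps18b higher, beside 13.6% of all genes. In 17 members every ON library was below every saline library, where 3.39% of all genes had this pattern, and no member had the reverse. They are Mrpl52, Mrpl2, Mrps28, Mrpl24, Mrps15, Mrpl22, Mrpl40, Mrpl46, Mrpl45, Mrps33, Mrpl21, Mrpl39, Mrpl11, Mrpl23, Mrps31, Mrpl15 and Mrps10, 12 of the large subunit and 5 of the small. The smallest adjusted p in ON were those of Mrpl40 (-0.45 ± 0.11, adjusted p = 0.0504), Mrpl52 (-0.83 ± 0.21, 0.0607) and Mrpl22 (-0.63 ± 0.16, 0.0680, limma). Without ON 2, ON 3 and MM 2 the ON median was -0.27 with 71 members below 0, and 24 members had an unadjusted p under 0.05, all lower, beside 8.65% of all genes. Leaving out libraries cannot lower the count of members that separated fully.

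In OS against saline the members were less uniform. The median was -0.18, with -0.19 for the large and -0.17 for the small subunit, and 67 of 77 were below 0, where 50% of all genes were. No member was called, beside 2.99% of all genes. 15 had an unadjusted p under 0.05, beside 16.3% of all genes, a share close to the background. This count was 7 without CT 1 (beside 17.7% of all genes), 21 without CT 4 (beside 19.7%) and 28 without OS 3 (beside 16.8%). No member separated fully from saline, where 0.951% of all genes did. The smallest adjusted p was that of Mrps5 (-0.38 ± 0.12, adjusted p = 0.0802), a conserved small-subunit protein named after its value was seen, at 5.24 ± 0.612 FPKM in saline (SD, n = 5) and 3.85 ± 0.834 in OS (SD, n = 6).

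OS libraries spread widely around that median. The median member stood at -0.45 from the saline mean in OS 5 and at 0.10 in OS 3, while the ON libraries lay between -0.45 and -0.18. OS 5 was the lowest of all 26 libraries for 20 members. In the direct comparison of OS with ON, 66 of 77 members were higher in OS with a median of 0.17 (all genes 0.012), and no member was called, beside 0.185% of all genes. Without OS 3 the median was 0.09 with 60 members higher, and without OS 5 it was 0.23. 8 members had an unadjusted p under 0.05, beside 10.6% of all genes. When single libraries were left out the count ran from 1 without ON 3 (beside 7.88%) to 14 without OS 5 (beside 16.6%). It was 2 when ON 2, ON 3 and MM 2 were left out (beside 10.5%). The smallest adjusted p was that of Mrpl33 (0.40 ± 0.14, adjusted p = 0.284), named after its value was seen. The comparisons of OS and of ON with saline share the 5 saline libraries.

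With the mimic added to OVA, members were somewhat higher than with OVA alone, and none passed the test. The median difference was 0.11 (all genes 0.003), with 0.10 for the large and 0.11 for the small subunit, and 68 of 77 members were above 0. No member was called and 0% of all genes were. 6 members had an unadjusted p under 0.05, all higher, beside 10.1% of all genes, so their count is no higher than the background. When single libraries were left out, 1 to 15 had one (1 without MM 3, beside 8.27% of all genes, and 15 without MM 4, beside 11.7%). Without ON 2, ON 3 and MM 2, 1 member had one, beside 6.91% of all genes. The largest fitted increases were those of Mrpl14 (0.44 ± 0.18, adjusted p = 0.413), Mrps21 (0.34 ± 0.16, 0.476), Mrps12 (0.30 ± 0.25, 0.699) and Mrps26 (0.28 ± 0.15, 0.530, limma). The smallest adjusted p was that of Mrps5 (0.24 ± 0.08, adjusted p = 0.349).

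Mrpl14 in the mimic libraries was at 29.3, 18.7, 27.3, 10.7 and 11.7 FPKM in MM 1 to MM 5 and at 29.2, 29.4, 30.8, 25.1 and 24.9 in MN 1 to MN 5. MN stood above every OVA library, and MM ran from near the lowest OVA library into the saline range. Mrps21 was likewise even in MN, at 52.8 ± 3.45 FPKM in MN (SD, n = 5) and 46.2 ± 11.3 over all 10 mimic libraries. The largest fitted decreases were small: Mrps30 differed by -0.15 ± 0.10 (adjusted p = 0.608), Mrps18b by -0.11 ± 0.09, Mrpl17 by -0.06 ± 0.08 and Mrps17 by -0.05 ± 0.06. Several of these sizes rest on single libraries: Mrps18b was at -0.07 without MM 3, Mrpl17 at -0.009 without MM 4 or ON 2 and -0.09 without MM 3, Mrps17 at -0.03 without ON 2, OS 4 or MM 4, and Mrps12, among the increases, at 0.18 without OS 5 and 0.20 without MM 3. Mrps30 went from 3.61 ± 0.788 FPKM in OVA to 3.13 ± 0.675, with groups that overlapped. The mimic comparison uses the same OVA libraries as OVA against saline, so the opposite signs of the 2 comparisons are not independent.

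**Figure D4:**
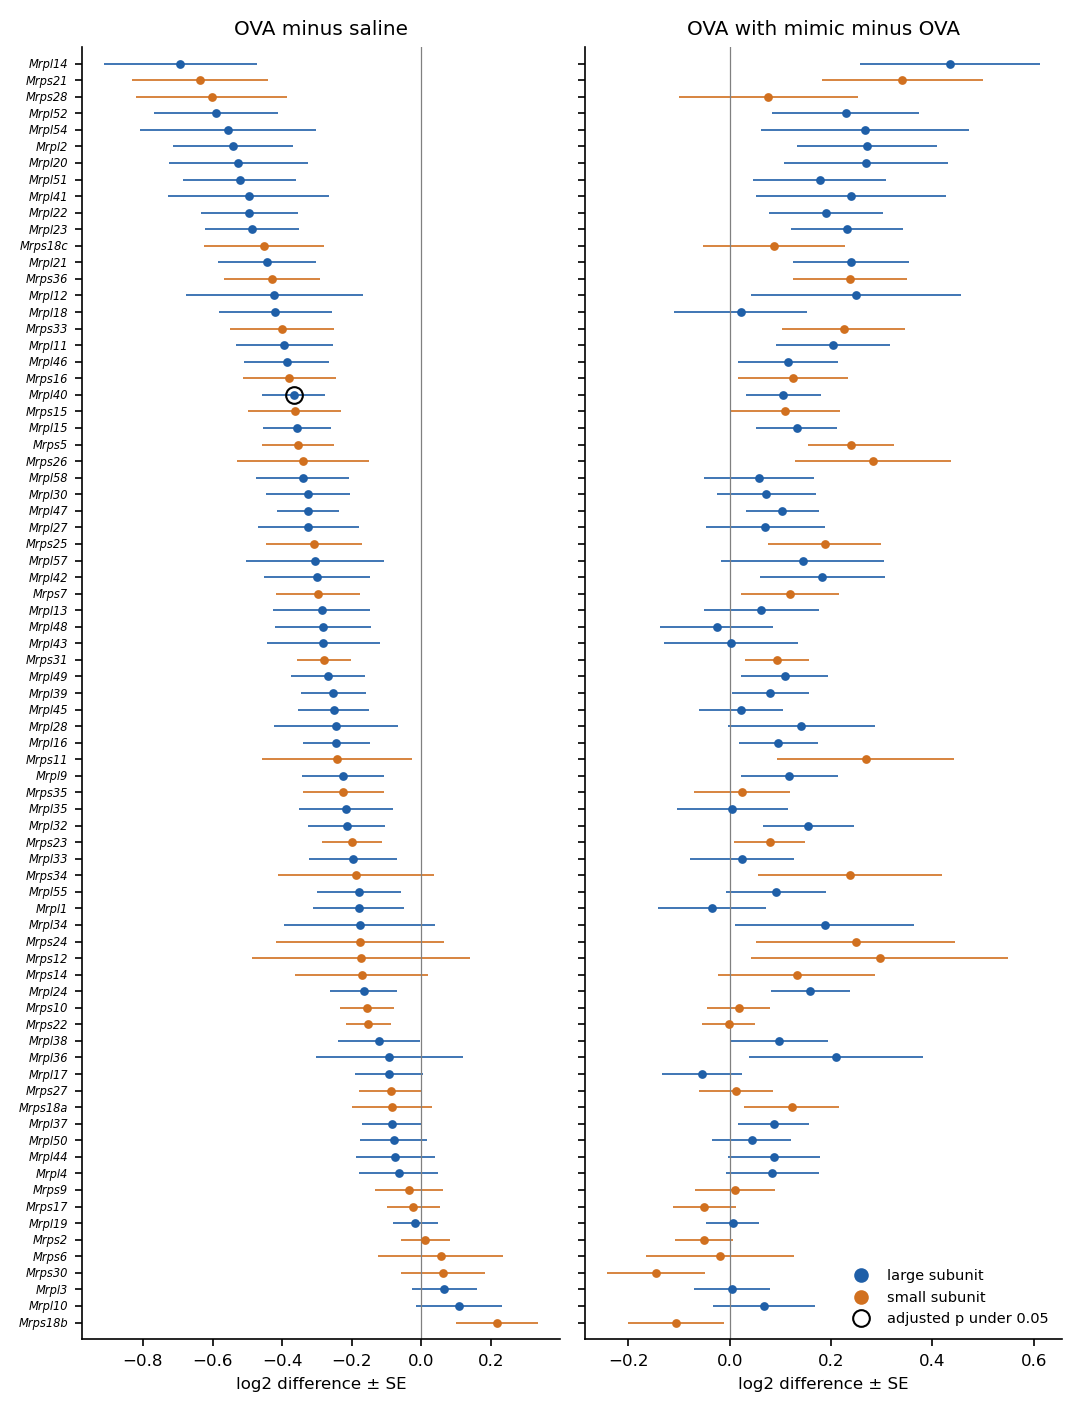
Log2 difference ± SE for each of the 77 tested members (large and small subunit in different colours) in OVA against saline and in OVA with mimic against OVA, with Mrpl40 circled as the only member called. Most members lie below 0 in the first comparison and above 0 in the second, which share the OVA libraries.

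Set against saline directly, the mimic libraries were still below for most members. The median was -0.16 (all genes 0.007), -0.20 for the large and -0.12 for the small subunit, with 63 of 77 members below 0. No member was called, as 0% of all genes were, and 15 members had an unadjusted p under 0.05, beside 6.72% of all genes. The last count was 3 without CT 1 (beside 8.12% of all genes), 7 without CT 4 (beside 2.95%) and 6 without MM 4 (beside 5.11%). Without ON 2, ON 3 and MM 2 it was 8 (beside 7.1%). Without CT 1 the median was -0.10 with 56 members below 0, and without CT 4 it was -0.16 with 72 below 0. By code, MM was at a median of -0.17 with 65 members below 0, and MN at -0.10 with 57 below 0.

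No member was called in MM, beside 0.3% of all genes, nor in MN, beside 0%. An unadjusted p under 0.05 was found for 20 members in MM, beside 9.78% of all genes, and for 1 in MN, beside 2.88%. The MM count was 8 without CT 1 (beside 10.3% of all genes) and 15 without CT 4 (beside 9.15%). It was 6 without MM 4 (beside 7.43%) and 10 without MM 2 (beside 10.6%). Full separation below saline was found for no member in either code, beside 0.804% of all genes in MM and 0.351% in MN. Without MM 3 the MM median was -0.25. The smallest adjusted p in MM was that of Mrpl40 (-0.36 ± 0.11, adjusted p = 0.170). Without CT 4 the MN median was -0.13 with 74 of 77 members below 0. Without CT 1 it was -0.04 with 45 below 0, and with values scaled to the plain read total it was -0.01, where the all-gene median moved to 0.09.

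Between the mimic codes, MM was lower than MN by a median of -0.08 (54 of 77 below 0), -0.11 for the large and -0.05 for the small subunit. No member was called, beside 0.172% of all genes, and 5 had an unadjusted p under 0.05, beside 7.25% of all genes. The smallest adjusted p was that of Mrpl16 (-0.33 ± 0.11, adjusted p = 0.392). This median rested on MM 4: without it 38 of 77 members were below 0 and the median was 0.006. It was -0.16 without MM 3, -0.14 without MM 1 and -0.05 without MM 5.

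Over the codes, the summed FPKM of the members was 1168 ± 179 in CT, 1065 ± 55.9 in MN, 988 ± 204 in OS, 986 ± 248 in MM and 849 ± 98.4 in ON (SD, n = 6 in OS and 5 in the others). Each code overlapped its neighbours in that order. The within-code spread was shared by many members. CT 1 was the highest of the 26 libraries for 35 members and CT 4 for 19, though CT 4 was also the lowest for 9. MM 4 was the lowest for 15 members and ON 3 for 10. Members below every saline library numbered 2 to 48 in the OS libraries, 27 to 50 in ON, 0 to 55 in MM and 5 to 28 in MN. The matching share of all genes in each library is not given, so these counts cannot be set against a background. Across the 26 libraries, deviations from the code mean correlated with a median r of 0.46 over 2926 pairs of members. The pairs share the libraries and their scaling. Within the large subunit the median r was 0.53, and within the small subunit 0.36.

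CT 1 bears on the size of the decrease. Its median member stood 0.25 above the saline mean, and the other saline libraries stood between -0.088 and -0.031. Without CT 1 the OVA median was -0.21 with 66 members below 0, and no member was called. The count over all genes was lower in that run too, as the closing section gives. Without CT 4 the median was -0.26 with 74 below 0. Without the 3 libraries with pancreatic reads it was -0.24 with 70 below 0. Weighting libraries by their estimated quality in limma, which changed the call counts most, gave a median of -0.18 with 70 below 0. It called 13 members lower in OVA, beside 9.16% of all genes, 3 in OS (2 lower and Mrps30 higher), beside 8.63%, 17 lower in ON, beside 5.48%, 5 lower in MM, beside 3.31%, and 3 lower in MM against MN, beside 3.02%.

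Short genes as a whole were lower under OVA, and the members are short. Among 11927 tested protein-coding genes with a coding length, the median OVA difference was -0.12 for the 1576 under 600 bases, -0.01 for the 3560 of 600 to 1199 bases and 0.04 for the 6791 of 1200 or more. In the members the medians were -0.30 for 39, -0.24 for 34 and -0.09 for 4 in the same length classes. Each class of members was thus below its class of all genes. Spearman's rho of coding length with the difference was 0.34 across the 77 members and 0.26 across all, a description across genes, which are not independent. In ON the medians of all genes were -0.17, -0.03 and 0.06, and those of members -0.39, -0.34 and -0.17. In MN the members were at -0.09, -0.12 and -0.10, with no order by length. The part of length in the members' difference was not tested.

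Many members share a promoter region with a divergent neighbour. By GENCODE M21, 32 of 78 members (41.0%) have a protein-coding neighbour on the other strand whose start lies within 1000 bases, against 10.6% of all protein-coding genes. Mrpl46 and Mrps11 are each other's neighbour. For 27 members with a tested neighbour that is no member, the neighbours were at a median of -0.01 in OVA against saline with 15 below 0, while the members themselves were at -0.30 with 26 below 0. Hira, the histone chaperone gene next to Mrpl40, differed by 0.01 ± 0.13. The only neighbour called was Ndufs6, a complex I subunit whose start lies beside Mrpl36 with overlapping exons, which fell by 1.11 ± 0.22 on the log2 scale (adjusted p = 0.0106, limma), from 39.6 to 18.5 FPKM. Mrpl36 differed by -0.09, and reads in the shared exons cannot be assigned where strand is not used. Exons of 33 members overlap another annotated gene, 28 of them on the other strand, and the sources used here do not state whether the counting used strand.

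**Figure D5:**
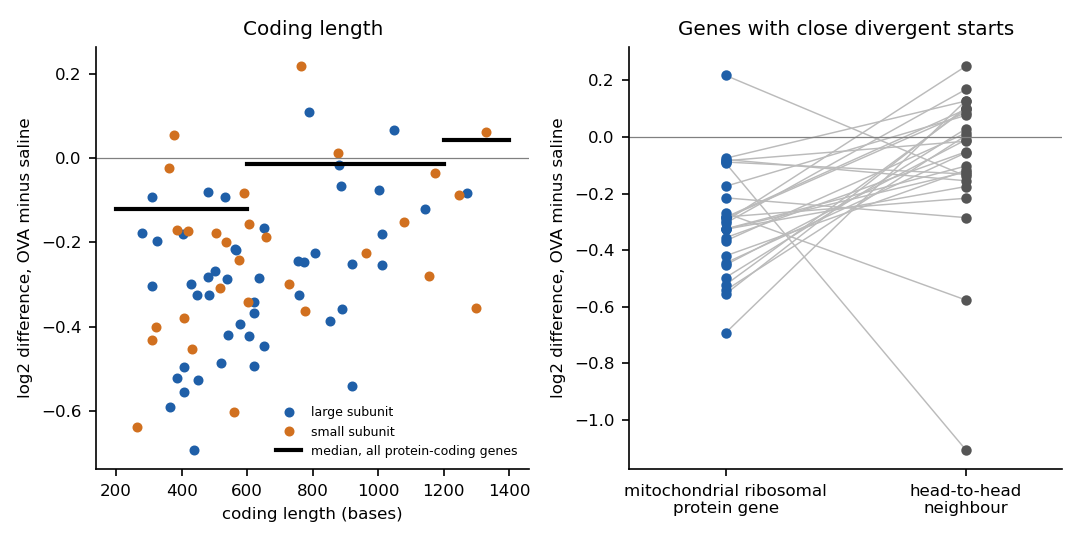
Left: OVA minus saline log2 difference of the 77 members by coding length in bases (linear axis). Black lines are the medians of all tested protein-coding genes in 3 length classes, and members lie below the line of their class in most cases. Right: 27 members with their divergent neighbours, joined by lines; members are at a median of -0.30 and neighbours at -0.01.

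Among other parts of mitochondrial gene expression, the decrease was not general. The 5 mitoribosome proteins with other symbols (Dap3, Ptcd3, Gadd45gip1, Chchd1 and Aurkaip1) were all below 0 in OVA against saline with a median of -0.20, and none passed. Dap3, a GTP-binding protein of the small subunit, was at 10.3 ± 2.09 FPKM in saline and differed by -0.19 ± 0.09 (adjusted p = 0.307). Of 13 tested translation factors, 7 were below 0 with a median of -0.02. Of 23 tested assembly and rRNA modification factors, 15 were below 0 with a median of -0.05, and of 19 aminoacyl-tRNA synthetases 10 with a median of -0.01. Of 9 tested genes of mitochondrial transcription and mRNA stability, 3 were below 0 with a median of 0.09. None of these passed in OVA against saline. In OS against saline, Mrm2, a methyltransferase of the mitochondrial large rRNA, fell by 0.64 ± 0.15 on the log2 scale (adjusted p = 0.0199), from 5.56 ± 0.965 to 3.2 ± 0.418 FPKM. That call was lost without CT 1 (adjusted p = 0.0559) or CT 3, with the replicate block (0.0826) and with plain total scaling.

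Of 15 genes encoded by the mitochondrial genome, 3 fell in OVA against saline, beside 2.17% of all genes called. They were mt-Nd3 of complex I (-1.21 ± 0.23, adjusted p = 0.00671), mt-Co2 of complex IV (-1.09 ± 0.21, 0.00873) and mt-Atp8 of ATP synthase (-1.12 ± 0.26, 0.0238, limma). mt-Atp8 was near the floor, at 2.88 ± 2.00 FPKM in saline and 2.11 in MN, but at 0.877 in OS and 0.475 in ON. Its OVA means were below the filter value, so it may have been tested only through codes where it is high. Its call was lost with no low-value filter and when 0.1 rather than 1 was added to FPKM. The saline mean rests in part on CT 4. Without it, mt-Nd3 (-0.89 ± 0.18, adjusted p = 0.0129) and mt-Co2 (-0.81 ± 0.18, 0.0198) still fell and mt-Atp8 did not pass (0.0685). The median over the 15 genes was -0.55 with CT 4 and 0.05 without it.

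Genes for proteins of the cytosolic ribosome showed the larger decrease. Of 80 tested, 20 fell in OVA against saline and none rose, beside 2.17% of all genes called. The median was -0.54, with 76 below 0. Those that fell include Rpl36a-ps1 and Rpl9-ps6, which are listed as protein-coding but carry pseudogene symbols. Rpl36a-ps1 was low, at 4.44 FPKM in saline, 1.12 in OS and 0.810 in ON. Leaving out CT 1 gave 5, leaving out CT 4 gave 13, leaving out the 3 libraries with pancreatic reads gave 5 and adding the replicate block gave 6, and the median stayed between -0.54 and -0.47 in these. The count over all genes fell too without CT 1, without those 3 libraries and with the block, as the closing section gives. Rpl32 (-0.97 ± 0.16, adjusted p = 0.00191) and Rpl37 (-0.94 ± 0.18, 0.00667) are examples that passed in each alternative run. Many of these genes have near-identical copies, so their reads are uncertain. With the mimic against OVA the median was 0.29 and none passed. By library, the cytosolic median moved with that of the members: it stood at -1.004 from the saline mean in MM 4 and -0.91 in OS 5, and at 0.28 in CT 1 and 0.22 in MM 3. Its part in the members' difference was not tested.

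Of 8 tested factors known to act on promoters of this kind, 1 passed. Myc rose in OS against saline by 1.21 ± 0.26 (adjusted p = 0.0101, limma), from 29.0 ± 8.44 to 70.6 ± 27.0 FPKM. It was at 33.3 ± 7.11 in ON, 55.8 ± 16.7 in MM and 31.3 ± 5.68 in MN. The call was lost when only the compared codes were fitted (adjusted p = 0.121). Cell markers also differed. Neutrophil genes were above saline in OVA for 10 of 10 markers with a median of 0.72, and below OVA with the mimic for 10 of 10 with a median of -0.88, and none passed in either. Their summed FPKM ran from 1499 to 8197 in saline, 2187 to 7340 in OS, 2506 to 6000 in ON, 926 to 4888 in MM and 1152 to 8052 in MN. The 11 matched erythroid markers had a median of -0.27 in OVA with 9 below 0 and of -0.30 with the mimic against saline with 10 below 0, and their summed FPKM ran from 41493 to 77237 in saline, 22870 to 64348 in OS and 15382 to 44150 in ON. In MM it ran from 23117 to 35016 and in MN from 31773 to 77734. Proliferation markers had a median of -0.07 in OVA, with 8 of 10 below 0, and of -0.28 with the mimic against saline, with 10 of 10 below 0 there and in MM (-0.28) and MN (-0.26) alone. Their summed FPKM ran from 574 to 1513 in saline (median 628), 396 to 1031 in OS (717) and 423 to 753 in ON (653). It ran from 422 to 757 in MM (569) and 443 to 637 in MN (608). All codes thus overlapped saline, and the saline median was below those of OS and ON. No marker of these lists is at 0 in every library of a code, and their part in the members' difference was not tested.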

How the data were processed

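The deposited table holds FPKM for 56392 genes in 26 libraries, made by the authors. The submitters' processing notes list the aligner HISAT2 2.0.5 and the counter featureCounts 1.5.0-p3. The authors' notes also list edgeR 3.24.3, DESeq2 1.20.0, the assembler StringTie 1.3.3b and CASAVA, and give no order. Genome build, strand setting and annotation are not given in the sources used here. Per the labels' protocols, mRNA was selected with poly-T beads. Multiplied by gene length, 100% of FPKM in each library were whole multiples of 1 step (tolerance 0.05), which gave the reads.

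Values were log2(FPKM + 1) computed from the deposited FPKM. limma 3.58.1 in R 4.3.3, with a variance trend, fitted 1 mean for each of 5 codes over all 26 libraries. OVA is the average of OS and ON, and the mimic group that of MM and MN. p-values were adjusted by Benjamini-Hochberg over all 15672 genes in each of 9 comparisons. Summaries used Python 3.11.15 with pandas 2.3.3. The fit was also run on simulated data with independent noise for each gene. That run held no library-wide shifts shared by many genes, so it says nothing of calls under such shifts. Promoters came from RefSeq (GRCm38.p6), and coding lengths, exon overlaps and neighbours from GENCODE M21 by gene ID. Gene positions are those of the deposited table and are not comparable with the promoter coordinates. 1 read on 1 kilobase is an FPKM of 0.0520 to 0.0899, and this precision covers counting error only.

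Named members are those called, the 4 highest and 4 lowest by mean FPKM, the 4 largest rises and falls in OVA against saline and in mimic against OVA, the Mrps18 paralogues and 10 members with special roles. Other members named were chosen after their values were seen. The members and lists were chosen with earlier results of these data known. Mtrfr and Ahsp did not match the table. Of the neutrophil, erythroid, proliferation, pancreatic, B cell, T cell and red pulp macrophage lists, the last 3 had OVA medians of -0.10, -0.10 and -0.03. The alternatives tried are named in the closing section.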

Additional observations from a re-analysis of the deposited data

Results flagged for a closer look

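In 15 genes and 2 summaries over the members, 85 groups of values were searched for a library far from the others of its code, and 4 were found, about what chance gives (1 in 20 groups). The median member in saline stood at 0.254 above the saline mean in CT 1, apart from the other 4 libraries. Mrpl40 in OS was highest in OS 3, at 16.1 FPKM, where the other 5 OS libraries were at 11.3 to 13.0. Mrpl17 in ON was highest in ON 2, at 5.66 FPKM, a library with 27.3% of reads on pancreatic genes. Mrps26 in saline was lowest in CT 4, at 6.56 FPKM, the library with 6.62% of reads on mitochondrial genes. The part of these library features in the values was not tested.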

How the results depend on the processing

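Each count of called members and each median was recomputed without each library in turn and under the settings named here. In OVA against saline the count of called members, 1 as reported, was 0 with the replicate block, with no low-value filter, with plain total scaling, without ON 2, ON 3 and MM 2, with only the codes compared and with 1 mean per treatment. It was 3 with an FPKM minimum of 5 and with median-ratio scaling and 13 with library weights, and 0 to 10 when 1 library was left out. It was 0 without CT 1, CT 5, ON 1, ON 2 or ON 3, 10 without OS 3, 4 without CT 4, ON 4 or MM 3, 3 without OS 4, ON 5 or MM 4, and 2 without CT 2. The count in OS, 0 as reported, was 3 with library weights and 0 to 2 leaving out 1 library (2 without CT 4). In ON, also 0, it was 4 with an FPKM minimum of 5, 1 with median-ratio scaling, 1 with only the codes compared, 17 with library weights and 0 to 4 leaving out 1 library. Library weights also gave 5 in MM and 3 in MM against MN. The cause was not tested. The count over all genes moved between settings as well, and for most settings no share of all genes stands beside the member count. These member counts therefore cannot be set against a background. Over the alternatives the median ran from -0.296 to -0.184 in OVA, -0.258 to -0.127 in OS, -0.400 to -0.260 in ON, -0.250 to -0.114 in MM, -0.125 to -0.0150 in MN and -0.183 to -0.0993 in the mimic libraries against saline. It ran from 0.0425 (library weights) to 0.157 with the mimic against OVA, 0.0908 to 0.231 in OS against ON and -0.163 to 0.00583 in MM against MN, the only one that changed sign. Large minus small ran from -0.0781 to -0.0347 leaving out 1 library and was -0.0238 with library weights. Among named members, Mrpl3 reversed with library weights (-0.0688), and leaving out 1 library gave -0.00309 to 0.170 for Mrps30, -0.0509 to 0.112 for Mrpl3 and -0.0643 to 0.206 for Mrpl10. The adjusted p of Mrpl40 was 0.0970 without CT 1, 0.0795 without CT 4, 0.0587 with no filter and 0.0251 with an FPKM minimum of 5. Replicate numbers did not pair the libraries: deviations of same-numbered libraries correlated above 0.1 in 9 of 50 pairs (median -0.044). The replicate block lowered the count over all genes in OVA from 340 to 184 and left the member median at -0.26. Without CT 1 that count was 152 and without the 3 libraries with pancreatic reads 108. Depth limits members near 2 FPKM most.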
